A study of Homo sapiens with 9 samples.

Results

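NFKBIA and the other NF-kappa-B subunits and inhibitors were followed on 9 Clariom S microarrays of HepG2 cells, a human hepatic cell line. The genes were taken by symbol from a list that groups NFKBIA, NFKBIB, NFKBIE, TNFAIP3 and BCL3 with the inhibitors, and NFKB1, NFKB2, RELA, RELB and REL with the subunits. Of these 10 genes, 9 were measured by 1 transcript cluster each, out of 17687 genes in the table. BCL3 is not analysed here because its symbol had no cluster in the platform annotation used. VDR+VitD cells received the adenovirus that carries the vitamin D receptor (Ad-VDR) for 48 h and then 10 nM VitD (calcitriol, the hormonal form of vitamin D) for 4 h. VDR cells received Ad-VDR for 48 h and vehicle (DMSO) for 4 h, and CONT cells received an adenovirus with no insert (Ad-C) and vehicle for the same times. All 3 groups therefore carried a virus, and no cells without virus and no cells with VitD but without Ad-VDR were on the arrays. Every group had 3 arrays (n = 3), numbered 1 to 3 by the endings E1 to E3 of their titles, which recur in every group. The labels speak of 3 independent experiments without saying that arrays of the same number share one. All values come from a single cell line in which the receptor was overexpressed. RNA came from whole cultures, so a change in some cells and a change in all cells cannot be told apart. Values are log2 values after RMA, the background correction, quantile normalization and probe summary used for these arrays.

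NF-kappa-B is a family of transcription factors that drive inflammatory and survival genes. The DNA-binding subunits RELA, RELB and REL carry activation domains, while NFKB1 and NFKB2 encode the precursors p105 and p100, which are processed to p50 and p52. In resting cells the IkB proteins, encoded by NFKBIA (IkB-alpha), NFKBIB (IkB-beta) and NFKBIE (IkB-epsilon), bind the dimers and hold them in the cytoplasm. Ligands such as TNF and IL-1 activate the IKK kinases, which mark the IkB proteins for destruction and free the dimers. NFKBIA and TNFAIP3, which encodes the ubiquitin-editing enzyme A20, are themselves well-known target genes of NF-kappa-B and limit its activity. In hepatocytes NF-kappa-B is known for the acute-phase response and for protection from cell death induced by TNF.

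The labels held in the controls. VDR averaged 17.50 ± 0.07 with Ad-VDR and VitD, 17.85 ± 0.04 with Ad-VDR and vehicle and 6.35 ± 0.39 with Ad-C (SD, n = 3 each). CYP24A1, the enzyme that inactivates VitD and a classical VDR target, averaged 16.40 ± 0.03, 5.79 ± 0.47 and 7.39 ± 0.66 in VDR+VitD, VDR and CONT cells (SD, n = 3 each). Medians of the 9 arrays lay between 6.16 and 6.20. Of 12 listed hepatocyte markers 11 were measured, and their mean level was 13.65 to 13.71 in VDR+VitD cells, 13.57 to 13.77 in VDR cells and 13.46 to 13.57 in CONT cells. The mean of 11 leukocyte markers was 7.13 to 7.17, 7.14 to 7.20 and 7.15 to 7.20 in VDR+VitD, VDR and CONT cells, and that of 11 stellate and endothelial markers was 5.56 to 5.57, 5.52 to 5.68 and 5.39 to 5.46. On this array 6 of the 11 leukocyte markers and 9 of the 11 stellate and endothelial markers lay below the median gene, as did 1 of the 11 hepatocyte markers. Of the hepatocyte markers 1 was called, ASGR1 (named after its values were seen), higher by 0.60 in VDR+VitD against CONT (SE 0.14, adjusted p = 0.0164). In that comparison 4.81% of all genes were called. In VDR against CONT 0 of the 11 were called, where 0.407% of all genes were. Groups did not overlap there for 5 of the 11 (45.5%), all higher, against 13.1% of all genes. The part of these markers in the results was not tested. No marker of the leukocyte or the stellate and endothelial list was called in any of the 3 comparisons.

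Calls required an adjusted p below 0.05 (limma, with Benjamini-Hochberg adjustment over 17687 genes) together with a change of more than 1.5-fold up or down. In the main fit, by group alone, NFKBIA was the only gene of the family called when VDR+VitD cells were set against VDR cells, and it was higher. Among all genes 735 were called in that comparison (4.16%), 464 higher and 271 lower. A limma fit with the replicate number as a block called TNFAIP3 too, as lower (adjusted p = 0.0425). Values of the 3 VDR+VitD arrays did not overlap those of the 3 VDR arrays for 4 of the 9 genes, with NFKBIA higher and TNFAIP3, NFKB1 and REL lower, against 18.4% of all genes without overlap. The median log2 fold change of the 9 genes was -0.24, against -0.02 over all genes, and 7 of the 9 had a negative sign. Against CONT cells, VDR+VitD cells again had 1 of the 9 genes called, NFKBIA, where 4.81% of all genes were called. Groups did not overlap for 5 of the 9 genes in that comparison, against 21.7% of all genes: NFKBIA and REL were higher, and TNFAIP3, NFKB1 and RELA were lower. In VDR against CONT none of the 9 genes was called by limma, where 0.407% of all genes were called, and 3 of the 9 had an unadjusted p under 0.05, against 9.50% of all genes. Groups did not overlap for 3 of the 9, NFKBIA, NFKB1 and REL, all higher with Ad-VDR, against 13.1% of all genes. The 3 comparisons share arrays, so their values are given side by side and are not independent of each other.

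**Figure D1:**
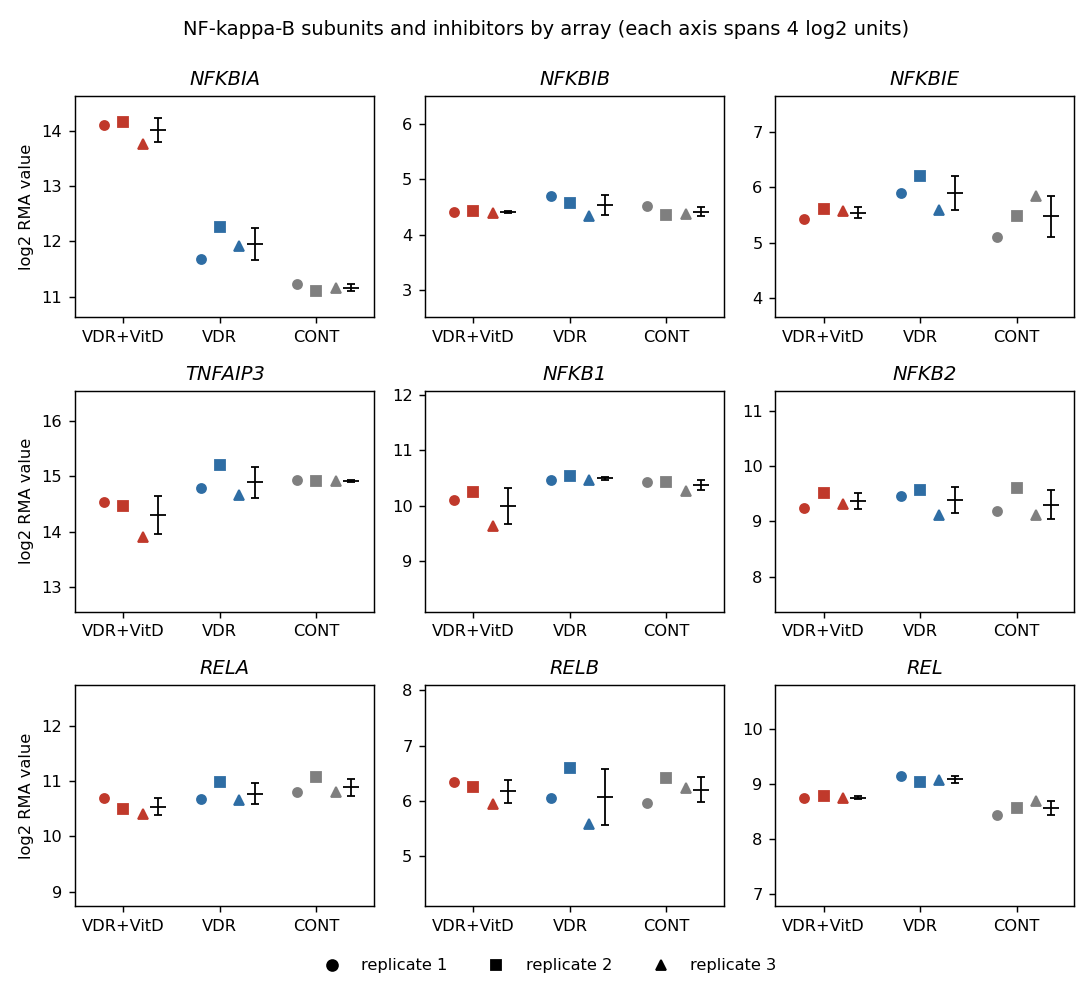
Log2 RMA value (vertical axis, spanning 4 log2 units in every panel) of each of the 9 measured genes in VDR+VitD, VDR and CONT cells. Marks are single arrays, with the shape giving the replicate number, and the black bars are the mean ± SD of 3 arrays. NFKBIA had means of 14.01, 11.95 and 11.16 in VDR+VitD, VDR and CONT cells, and the means of no other gene differed by more than 0.62 between groups.

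The promoters of the genes are shown because NFKBIA and TNFAIP3, both known to be induced by NF-kappa-B, had fold changes of opposite sign on the arrays, of which only that of NFKBIA was called. RefSeq windows (GRCh38.p14) of 250 bases before to 50 bases after a transcript start were found for 8 of the 10 genes and gave 13 windows, since some genes have several starts. Both strands were searched for the NF-kappa-B consensus, where a near-palindromic word can match on both strands with overlapping positions. It occurred in 8 of the 13 windows (61.5%), from 7 genes, and in 5.91% of the 35116 windows of all genes. A match is only a run of letters and not a site shown to be bound. The 250 bases before the start are given 5′ to 3′ on the strand of the gene, with matches in capitals, for NFKBIA (chr14:35404750-35404999, minus strand), TNFAIP3 (chr6:137867009-137867258, plus strand), NFKB1 at the upstream start listed first (chr4:102501109-102501358, plus strand) and NFKBIB at the downstream start (chr19:38899719-38899968, plus strand). NFKBIB was included as an inhibitor for which no fold change beyond 1.5-fold lay within the confidence intervals. Its signal was low, however, and a change can be understated for so dim a gene.
NFKBIA: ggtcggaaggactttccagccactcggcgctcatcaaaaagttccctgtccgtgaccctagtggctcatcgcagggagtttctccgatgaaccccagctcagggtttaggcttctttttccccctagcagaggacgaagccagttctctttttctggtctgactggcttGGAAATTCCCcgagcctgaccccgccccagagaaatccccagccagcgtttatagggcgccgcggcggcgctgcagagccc
TNFAIP3: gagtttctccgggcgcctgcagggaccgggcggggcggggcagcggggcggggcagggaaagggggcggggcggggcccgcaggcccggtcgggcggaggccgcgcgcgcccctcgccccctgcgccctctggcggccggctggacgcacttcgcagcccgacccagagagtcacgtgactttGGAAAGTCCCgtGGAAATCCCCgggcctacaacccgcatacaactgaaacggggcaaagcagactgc
NFKB1: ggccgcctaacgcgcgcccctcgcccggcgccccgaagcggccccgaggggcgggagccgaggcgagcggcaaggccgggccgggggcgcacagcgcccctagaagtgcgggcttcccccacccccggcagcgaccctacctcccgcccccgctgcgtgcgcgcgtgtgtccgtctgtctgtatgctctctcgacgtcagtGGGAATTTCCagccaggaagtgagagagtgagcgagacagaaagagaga
NFKBIB: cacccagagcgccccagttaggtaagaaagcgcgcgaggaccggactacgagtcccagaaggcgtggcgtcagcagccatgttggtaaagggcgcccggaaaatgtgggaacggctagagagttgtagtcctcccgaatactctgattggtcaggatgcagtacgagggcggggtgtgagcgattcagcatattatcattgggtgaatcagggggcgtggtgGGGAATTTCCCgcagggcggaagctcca
The match of NFKBIA covered positions -81 to -72 from the start, where the strand of the gene reads GGAAATTCCC and the other strand holds the match. TNFAIP3 had GGAAAGTCCC at -67 to -58 and GGAAATCCCC at -55 to -46, again as read on the strand of the gene, with both matches on the other strand. NFKB1 had GGGAATTTCC at -49 to -40, and NFKBIB had the same word at -28 to -19 with an overlapping antisense match at -27 to -18. NFKB2 had matches at its 2 downstream starts and REL at its start, BCL3 had 1 just after its start, and neither window of RELA had any. For the vitamin D receptor, the hexamer AGGTCA was searched, together with the variant AGTTCA, another variant GGGTCA and the remaining variant GGTTCA. They were searched singly and as a direct repeat of 2 hexamers with 3 bases between them, on both strands. The direct repeat occurred in 0 of the 13 windows and in 0.074% of all windows (26 of 35116). At so low a share, its absence from 13 windows says nothing particular about these genes, and sequence outside the windows was not searched. Single hexamers occurred in 2 of the 13 windows, with 3 in that of NFKBIA and 1 in that of BCL3, and in 38.6% of all windows.

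**Figure D2:**
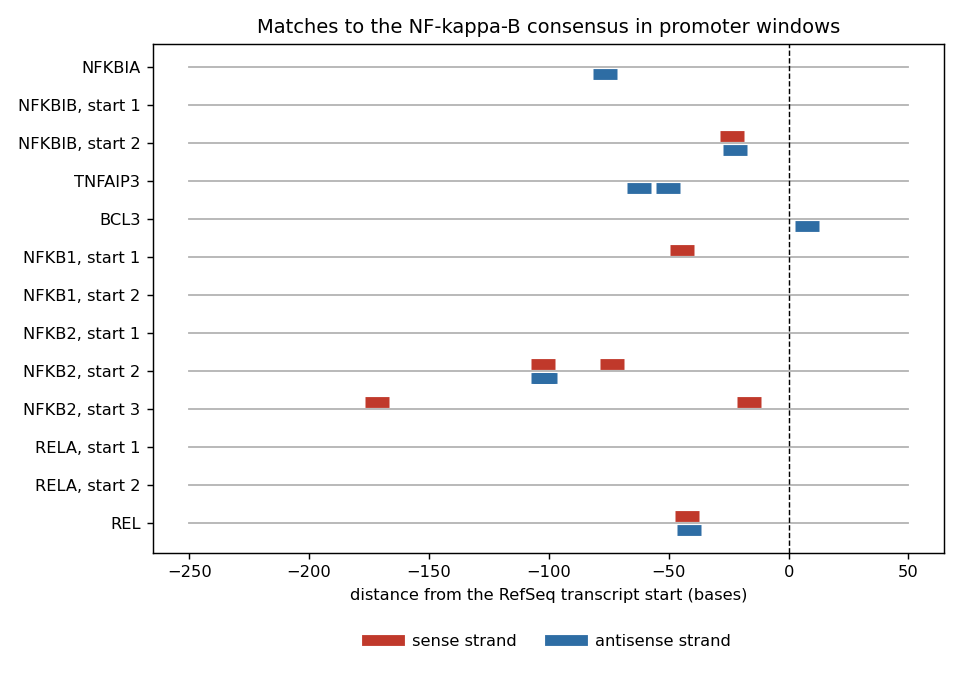
Position of matches to the NF-kappa-B consensus in the 13 RefSeq promoter windows of 8 genes, as distance in bases from the transcript start (dashed line). Red blocks are matches on the strand of the gene and blue blocks matches on the other strand. The 8 windows with a match include that of NFKBIA, at -81 to -72, and both of TNFAIP3's matches lie between -67 and -46.

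NFKBIA, which encodes IkB-alpha, the inhibitor that mainly retains dimers of p50 and RELA, was the only gene of the family that rose past both thresholds. Its log2 values in replicates 1, 2 and 3 were 14.10, 14.16 and 13.76 in VDR+VitD cells, against 11.68, 12.26 and 11.91 in VDR cells and 11.22, 11.10 and 11.16 in CONT cells. The 3 groups were fully separated, with VDR+VitD highest and CONT lowest. Against VDR cells the log2 fold change was 2.06 (SE 0.16, adjusted p = 9.93e-07), which is 4.16-fold with a 95% confidence interval of 3.28 to 5.28. Among the 464 genes called higher in that comparison NFKBIA had the 55th largest rise. Set against CONT cells, VDR+VitD cells were higher by 2.85 (SE 0.16, adjusted p = 2.96e-08), or 7.19-fold (95% confidence interval 5.67 to 9.13), the 25th largest rise among 476. Both calls held with every array left out in turn, with adjusted p at most 2.20e-05 in VDR+VitD against VDR and at most 1.07e-06 in VDR+VitD against CONT.

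Ad-VDR without VitD gave a smaller difference in NFKBIA that lay at the threshold. VDR cells exceeded CONT cells by 0.79 (SE 0.16, adjusted p = 0.0511), or 1.73-fold (95% confidence interval 1.36 to 2.20). All VDR arrays lay above all CONT arrays. It was called without replicate 3 of VDR+VitD (adjusted p = 0.0454) and without replicate 1 of VDR (log2 fold change 0.92, adjusted p = 0.0466). Over all settings tried the adjusted p ranged between 0.0086 and 1, the last from a test against a change of 1.5-fold rather than against 0.

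Neither of the other IkB genes was called in any comparison. NFKBIB, which encodes IkB-beta, had a low signal, at 4.41, 4.42 and 4.40 in VDR+VitD cells, 4.69, 4.58 and 4.33 in VDR cells and 4.51, 4.35 and 4.38 in CONT cells. The groups overlapped in all 3 comparisons. The log2 fold change was -0.12 (adjusted p = 0.763) in VDR+VitD against VDR, -0.003 (adjusted p = 0.993) in VDR+VitD against CONT and 0.12 (adjusted p = 0.841) in VDR against CONT, and each 95% confidence interval lay within 1.5-fold. For a gene with so dim a signal, a change can be understated. NFKBIE, which encodes IkB-epsilon, was at 5.43, 5.61 and 5.58 in VDR+VitD cells, 5.90, 6.20 and 5.59 in VDR cells and 5.11, 5.48 and 5.85 in CONT cells. Groups overlapped here too, with the widest spread in CONT cells. The log2 fold change was -0.36 (adjusted p = 0.417) in VDR+VitD against VDR, 0.06 (adjusted p = 0.931) in VDR+VitD against CONT and 0.42 (adjusted p = 0.508) in VDR against CONT.

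TNFAIP3 (A20), the other inhibitor known as a target of NF-kappa-B, had lower values with VitD but was not called. It was at 14.53, 14.47 and 13.90 in VDR+VitD cells, 14.80, 15.21 and 14.67 in VDR cells and 14.94, 14.91 and 14.91 in CONT cells. All VDR+VitD arrays lay below all others, and the lowest value was that of replicate 3. Against VDR cells the log2 fold change was -0.59 (SE 0.18, 95% confidence interval -0.98 to -0.21), and the adjusted p of 0.0817 missed the threshold. Without replicate 3 of VDR+VitD it was -0.39. Against CONT cells the change was -0.62 (adjusted p = 0.0591), which was called without replicate 2 of VDR (adjusted p = 0.0400). When the VDR and CONT arrays were taken as 6 arrays without VitD, the change was -0.61 (adjusted p = 0.0277). VDR cells differed from CONT cells by -0.03 (adjusted p = 0.982), and the 95% confidence interval lay within 1.5-fold.

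**Figure D3:**
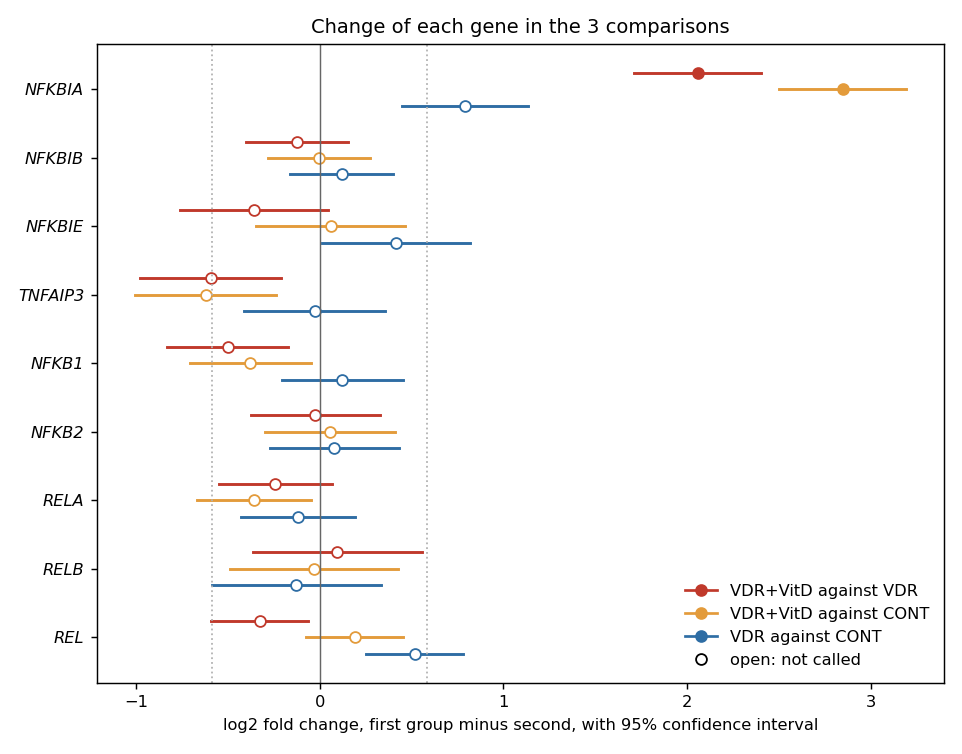
Log2 fold change (horizontal axis, named group minus the group it is set against) of the 9 genes with 95% confidence intervals from limma, for VDR+VitD against VDR (red), VDR+VitD against CONT (orange) and VDR against CONT (blue). Filled points were called, open points were not, and dotted lines mark a 1.5-fold change. Both filled points belong to NFKBIA, at 2.06 and 2.85.

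Among the subunits, NFKB1, the gene of p105 and p50, had lower values with VitD and was not called either. It was at 10.10, 10.24 and 9.63 in VDR+VitD cells, 10.47, 10.53 and 10.47 in VDR cells and 10.42, 10.42 and 10.26 in CONT cells. The VDR+VitD arrays lay below all others, again with replicate 3 lowest. The log2 fold change was -0.50 (SE 0.15, adjusted p = 0.0893) in VDR+VitD against VDR and -0.38 (adjusted p = 0.217) in VDR+VitD against CONT. Without replicate 3 of VDR+VitD these were -0.32 and -0.20. VDR cells differed from CONT cells by 0.12 (adjusted p = 0.869), an interval within 1.5-fold. NFKB2, the gene of p100 and p52, was at 9.24, 9.52 and 9.32 in VDR+VitD cells, 9.46, 9.57 and 9.12 in VDR cells and 9.18, 9.61 and 9.12 in CONT cells. These overlapped throughout. Its log2 fold changes were -0.02 (adjusted p = 0.974) in VDR+VitD against VDR, 0.06 (adjusted p = 0.925) in VDR+VitD against CONT and 0.08 (adjusted p = 0.930) in VDR against CONT, all with intervals within 1.5-fold.

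REL, the subunit c-Rel best known from lymphocytes, had its own largest difference between VDR and CONT cells. It was at 8.74, 8.78 and 8.74 in VDR+VitD cells, 9.14, 9.03 and 9.07 in VDR cells and 8.43, 8.57 and 8.69 in CONT cells. The 3 groups were fully separated, with VDR highest and CONT lowest, whereas VDR+VitD was highest for NFKBIA. VDR cells exceeded CONT cells by 0.52 (SE 0.12, adjusted p = 0.0991), a change below 1.5-fold. VDR+VitD cells differed from VDR cells by -0.33 (SE 0.12, adjusted p = 0.190) and from CONT cells by 0.19 (adjusted p = 0.494).

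RELA, the p65 subunit of the common heterodimer with p50, was at 10.70, 10.50 and 10.40 in VDR+VitD cells, 10.68, 10.99 and 10.65 in VDR cells and 10.80, 11.07 and 10.80 in CONT cells. VDR+VitD arrays lay below the CONT arrays, and overlapped the VDR arrays. The log2 fold change was -0.24 (adjusted p = 0.505) in VDR+VitD against VDR, -0.36 (adjusted p = 0.213) in VDR+VitD against CONT and -0.12 (adjusted p = 0.869) in VDR against CONT. RELB, the partner of p52 in the noncanonical pathway, was at 6.34, 6.25 and 5.94 in VDR+VitD cells, 6.05, 6.60 and 5.59 in VDR cells and 5.97, 6.42 and 6.23 in CONT cells. The groups overlapped, and the VDR arrays spanned the widest range of any of the 9 genes. Its log2 fold changes were 0.10 (adjusted p = 0.904), -0.03 (adjusted p = 0.973) and -0.13 (adjusted p = 0.910) in VDR+VitD against VDR, VDR+VitD against CONT and VDR against CONT. With VitD, set against VDR cells, the 95% confidence interval lay within 1.5-fold for 4 of the 9 genes, NFKBIB, NFKB2, RELA and RELB. For NFKBIE, TNFAIP3, NFKB1 and REL it reached beyond that size.

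Of all other genes, 3 followed the profile of NFKBIA most closely over the 9 arrays, by the root mean square difference of log2 values after subtraction of each gene's CONT mean. These were SLC27A2, a fatty acid transporter and acyl-CoA synthetase, with a difference of 0.42, KAZN, which encodes the junction-associated protein kazrin, with 0.43, and CEBPA, the transcription factor C/EBP-alpha, with 0.43. In VDR+VitD against CONT their log2 fold changes were 2.22, 2.38 and 3.32, and in VDR against CONT they were 0.74, 0.51 and 0.33. No other gene of the family was among them.

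The pathway around the family was read from lists of ligands, receptors and adaptors, the IKK complex with upstream kinases and their adaptors, other inhibitors and target genes. Of 10 ligands 8 were measured and 0 were called by limma in VDR+VitD against VDR, with 0 at an unadjusted p under 0.05. Of all genes 4.16% were called in that comparison and 15.1% had an unadjusted p under 0.05. TNF is not analysed here. LTA, the ligand lymphotoxin-alpha with the lowest p, was at 4.69 ± 0.24 in VDR+VitD cells and 4.43 ± 0.03 in VDR cells (SD, n = 3 each, adjusted p = 0.404). Most ligands were dim, with the highest means in VDR+VitD cells 6.57 for LTB and 6.44 for TNFSF12. For signals as low as that of LTA a change can be understated. Of 11 genes of the IKK complex and of upstream kinases and their adaptors, 10 were measured and 0 were called, with 5 at an unadjusted p under 0.05, against 15.1% of all genes. TAB3, an adaptor of the kinase TAK1, had an adjusted p of 0.0269 but a change of -0.51, below 1.5-fold. Without replicate 3 of VDR+VitD, CHUK (IKK-alpha), chosen after its values were seen, was called higher, and the count of this list was then 1. Of 15 other IkB proteins and brakes of the pathway 13 were measured and 0 were called, against 4.16% of all genes. Of the 13, 3 (23.1%) had an unadjusted p under 0.05, against 15.1% of all genes. RNF11, a partner of A20, had the lowest p there, with 0.43 and an adjusted p of 0.176.

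Among receptors and adaptors 2 were called higher and 1 lower of 15 measured (21 listed), 20% against 4.16% of all genes. TNFRSF1A, the main receptor for TNF, was at 13.35, 13.45 and 13.13 in VDR+VitD cells and 12.20, 12.50 and 12.15 in VDR cells. It rose by 1.03 (SE 0.16, adjusted p = 7.36e-04) with no overlap, and stood 1.19 above CONT cells (adjusted p = 1.78e-04). MYD88, the adaptor of IL-1 and Toll-like receptors, fell to 11.21, 11.14 and 10.94 in VDR+VitD cells, against 12.11, 11.83 and 11.92 in VDR cells. Its change was -0.86 (SE 0.13, adjusted p = 8.33e-04), and -0.63 against CONT cells (adjusted p = 0.00923), where it dropped below 1.5-fold without replicate 3 of VDR+VitD (-0.55) or without replicate 1 of CONT (-0.58). IL1RAP, the shared chain of IL-1 family receptors, was at 9.03, 8.84 and 8.87 in VDR+VitD cells, 8.48, 8.08 and 8.35 in VDR cells and 9.00, 8.66 and 9.22 in CONT cells. VDR+VitD cells were 0.61 above VDR cells (adjusted p = 0.0409), and the call was lost without any of the VDR+VitD arrays, replicate 2 or 3 of VDR or replicate 1 of CONT, with adjusted p up to 0.162. Against CONT cells the difference was -0.05, and VDR against CONT gave -0.66 (adjusted p = 0.109).

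Of 32 listed target genes of NF-kappa-B 29 were measured, and in VDR+VitD against VDR 2 were called higher, 1 was called lower and 26 were not called. The called share was 10.3%, against 4.16% of all genes. The median log2 fold change was -0.11, against -0.02 over all genes, and 75.9% of the 29 were negative, against 54.6% of all genes. Groups did not overlap for 11 of the 29 (37.9%), 3 higher and 8 lower, against 18.4% of all genes. Signal was low for several of the 29, so these shares mix dim and bright genes. Of the 8 lower, MMP9 was at 4.07 in VDR+VitD and 4.17 in VDR cells, and TRAF1 at 3.95 and 4.37. CXCL2 was at 5.41 and 5.97 (log2 fold change -0.56, adjusted p = 0.0608), and IRF1 at 5.44 and 6.08 (-0.64, adjusted p = 0.0959). PLAU was at 7.22 and 7.64, IL32 at 13.26 and 13.57, and IER3 at 16.77 and 17.18. CXCL8 was the other. Of the 3 higher, CFLAR was at 12.96 and 12.50 (0.46, adjusted p = 0.0421), below 1.5-fold, and the others were GADD45B and BCL2L1. GADD45B, a stress-response gene that limits JNK signalling, was at 10.81, 10.47 and 11.10 in VDR+VitD cells, 8.12, 8.72 and 8.33 in VDR cells and 9.29, 9.40 and 9.40 in CONT cells. It rose by 2.40 (SE 0.18, adjusted p = 5.55e-07) against VDR cells and by 1.43 (adjusted p = 1.07e-04) against CONT cells. In VDR against CONT the change was -0.97 (adjusted p = 0.0280), but that call was lost without replicate 1 or 3 of VDR or any 1 of the CONT arrays, with adjusted p between 0.0695 and 0.142.

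BCL2L1, which encodes the survival protein Bcl-xL, was at 13.70, 14.05 and 13.57 in VDR+VitD cells, 13.14, 13.21 and 12.77 in VDR cells and 13.68, 13.87 and 13.53 in CONT cells. It was 0.73 above VDR cells (adjusted p = 0.0154) and 0.08 above CONT cells. The call was lost without replicate 2 of VDR+VitD (adjusted p = 0.0881) or replicate 3 of VDR (0.0720). VDR against CONT gave -0.65 (adjusted p = 0.123). CXCL8, the neutrophil chemokine IL-8, fell to 6.79, 7.33 and 7.15 in VDR+VitD cells, against 8.20, 9.77 and 8.17 in VDR cells and 8.37, 9.30 and 9.58 in CONT cells. Every VDR+VitD array was below every other array. The change was -1.62 (SE 0.37, adjusted p = 0.0173) against VDR cells and -1.99 (adjusted p = 0.00355) against CONT cells. The call against VDR cells was lost without replicate 1 (adjusted p = 0.0901) or 3 (0.0515) of VDR+VitD. In VDR+VitD against CONT 1 of the 29 was called higher and 1 lower (6.9%, against 4.81% of all genes). In VDR against CONT 0 were higher and 1 was lower (3.45%, against 0.407% of all genes).

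**Figure D4:**
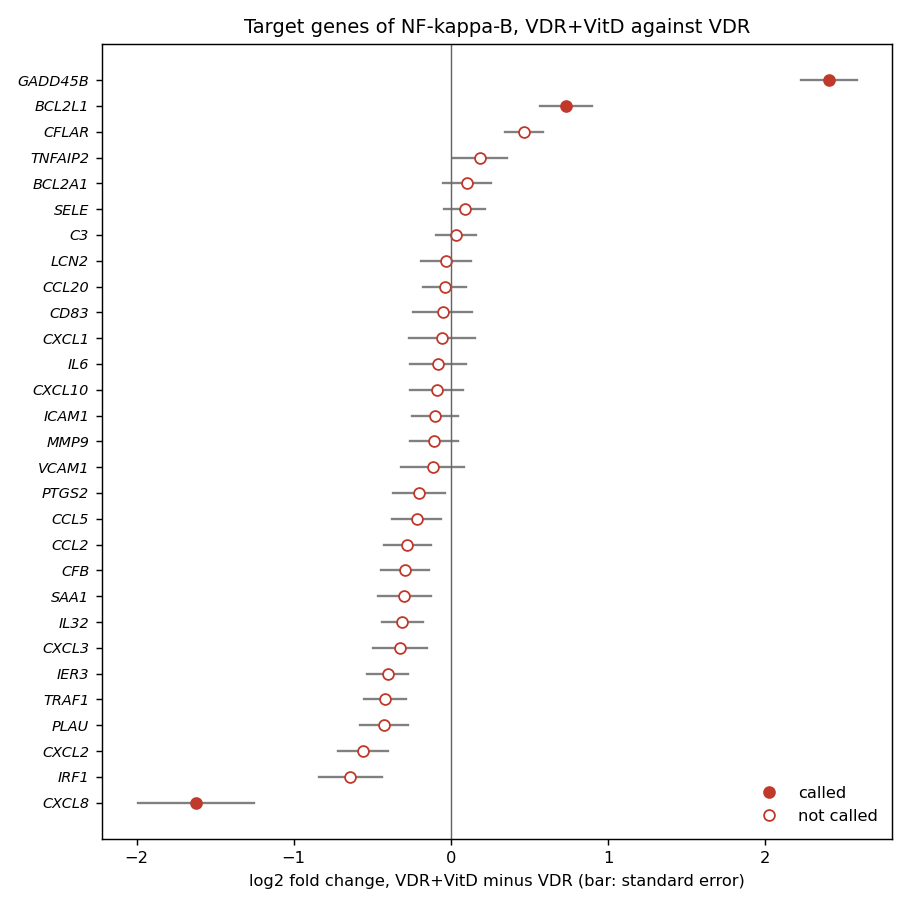
Log2 fold change in VDR+VitD against VDR cells (horizontal axis, VDR+VitD minus VDR) of the 29 measured target genes of NF-kappa-B, with the standard error from limma as a bar. Filled points were called, namely GADD45B at 2.40, BCL2L1 at 0.73 and CXCL8 at -1.62, and open points were not.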

How the data were processed

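The authors labelled 300 ng of RNA per Clariom S array and deposited log2 values for 21448 transcript clusters, which the submitters' processing notes trace to RMA in Transcriptome Analysis Console 4.0.2. Their genome build is not stated in any source used. Quantile normalization by the authors hides a shift shared by most genes. Symbols came from the platform annotation for 17709 clusters, 3739 were unnamed, and the 20 genes with several clusters were averaged, giving 17687 genes. All 9 arrays were fitted in limma 3.58.1 (lmFit, then eBayes, in R 4.3.3) by group alone, as the methods of the study name no block, and the steps were tested on simulated data. The thresholds were an adjusted p of 0.05 and a change of 1.5-fold. The promoter search used Python 3.11.15. No 2 arrays were duplicates, as at least 21025 clusters differed between any pair.

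A fit with the replicate number as a block was an alternative, besides filters on genes, an intensity trend, arrays centred on their medians, other thresholds, other sets of arrays and each array left out.

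The genes named by rule were all measured members, VDR and CYP24A1, up to 4 called genes per pathway list with the largest change in VDR+VitD against VDR or the gene with the lowest p where none was called, and the 3 genes closest in profile to a called member. Outside this rule, LTB and TNFSF12 were named for the highest means among the ligands. The uncalled target genes without overlap between VDR+VitD and VDR cells were named after their values were seen, as were ASGR1 and CHUK. Members and lists were chosen with earlier results of these data known. Arrays give no depth, and 3 arrays per group limit the precision.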

Additional observations from a re-analysis of the deposited data

How the results depend on the processing

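Of the 9 measured genes, NFKBIA stayed called higher in VDR+VitD against VDR and against CONT under every setting tried. The count of called genes was 2 in VDR+VitD against VDR, with TNFAIP3 added, under the replicate block, among genes above the median level, among the 8000 most variable genes, with an intensity trend and against the 6 arrays without VitD. It was 2 in VDR+VitD against CONT under the first 4 of these settings and between 1 and 2 with an array left out, TNFAIP3 being added without replicate 2 of VDR. In VDR against CONT it was 1 under the same 4 settings, with NFKBIA, and between 0 and 1 with an array left out. Among all 17687 genes VDR+VitD against VDR gave 735 calls, 806 with the block and 769 with the trend. The filters left 8844 and 8000 genes tested, with 671 called above the median level and 834 among the most variable. VDR+VitD against CONT gave 851 calls, 916 with the block, 884 with the trend, and 777 and 952 under these filters. Arrays of different groups share replicate numbers, but the labels do not say that a number marks a shared experiment. Deviations from the group means correlated with r between 0.042 and 0.145 in the 9 pairs of the same number and between -0.0959 and 0.0102 in the 18 other pairs, and 9 of 9 arrays correlated best with their own number, a hint from the data and not from the design. Under the replicate block TNFAIP3 had an adjusted p of 0.0425 in VDR+VitD against VDR and 0.0297 in VDR+VitD against CONT, and NFKBIA 0.0369 in VDR against CONT. It changed no other call of the 9 genes, and added calls of IL1RAP (0.0494) and BCL2L1 (0.0325), both lower, in VDR against CONT. Over all genes VDR against CONT gave 72 calls, 140 with the block, 117 above the median level, 141 among the 8000 most variable, 142 with the trend, 11 against a 1.5-fold null and between 27 and 69 with an array left out. A 1.5-fold null gave 188 calls in VDR+VitD against VDR and 207 in VDR+VitD against CONT, and of the pathway genes called in VDR+VitD against VDR it kept GADD45B alone. Calls of target genes were also gained in that comparison. IRF1 was called lower with only the 6 arrays compared, among the 8000 most variable genes and without replicate 2 of CONT. CXCL2 was called lower without replicate 2 of VDR+VitD, and CFLAR was called higher without a fold threshold.

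Of the 27 fold changes of the 9 genes, 20 moved by over 1.5 times or turned in sign with an array left out, and 0 of these were called. Signs turned as follows. Centring each array gave 0.00167 for NFKB2 in VDR+VitD against VDR and 0.00333 for NFKBIB in VDR+VitD against CONT, and the 6 arrays without VitD gave 0.0167 for NFKB2. With an array left out, in VDR+VitD against VDR, NFKB2 ranged between -0.16 and 0.07 and RELB between -0.15 and 0.36. In VDR+VitD against CONT, NFKBIB ranged between -0.035 and 0.045, NFKBIE between -0.12 and 0.24, NFKB2 between -0.035 and 0.21, RELB between -0.15 and 0.0883, IL1RAP between -0.20 and 0.0833 and BCL2L1 between -0.0583 and 0.18. In VDR against CONT, TNFAIP3 ranged between -0.185 and 0.085, NFKB2 between -0.0133 and 0.23, RELB between -0.39 and 0.12 and TAB3 between -0.00167 and 0.0683. The filters on genes left some genes without a value. The cause of these differences was not tested.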
